A study of Mus musculus with 16 samples.

Results

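The genes described here act at the neuromuscular junction, the synapse at which a motor axon drives a muscle fibre. They were chosen by symbol from all 23220 gene symbols listed in the 4 deposited expression tables, and all 10 members are among them: Chrna1, Chrnb1, Chrnd, Chrne and Chrng (the alpha, beta, delta, epsilon and gamma subunits of the muscle acetylcholine receptor), Musk, Lrp4, Dok7, Rapsn and Agrn. The samples were fibres freed of adhering single-nucleus cells, from the extensor digitorum longus (a fast hindlimb muscle) of male C57BL/6 mice. In all, 4 groups of 4 libraries each were available: old runners (22 months of age, 5 weeks of voluntary wheel running), old controls (22 months, not run), young runners (4 months, 5 weeks of running) and young controls (4 months, not run). No transgene or deletion is named in the labels for any group. The labels do not say that each library came from its own animal, so p-values measure the spread between libraries.

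In skeletal muscle, agrin released by the motor nerve binds LRP4, which activates the receptor tyrosine kinase MuSK together with its cytoplasmic activator DOK7, and the scaffold protein rapsyn then gathers acetylcholine receptors into a dense cluster under the nerve terminal. These genes are read mainly by the few nuclei that lie beneath the synapse. In mouse muscle the fetal receptor carries the gamma subunit and the adult receptor the epsilon subunit, and loss of the nerve is known to raise several receptor subunits and MuSK along the whole fibre.

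Whole reads were recovered from the deposited log2 values (30.7 to 67.4 M assigned reads per library, median 46.9 M), and levels are given as normalised reads, meaning reads divided by a size factor of the library. Depth (M, megareads) averaged 49.6 ± 15.3 M in old runners, 43.2 ± 7.4 M in old controls, 44.8 ± 6.9 M in young runners and 52.4 ± 7.0 M in young controls (SD, n = 4 each). The 10 fibre markers, such as Acta1 and Ckm, summed to between 3987781 and 8218213 normalised reads in every library. Of 10 motor axon markers only Syt2, Nefh and Stmn2 are among the genes listed, and their sum reached at most 56.2 normalised reads. Chat, the enzyme gene of acetylcholine synthesis, is not among the genes listed. In bulk RNA from whole fibres, fewer synaptic nuclei and less RNA per synaptic nucleus cannot be told apart.

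Set against exon length, the members covered a wide span of levels. Rapsn had 937 ± 173 normalised reads per kilobase of exon and Chrnb1 925 ± 241 (SD over 16 libraries), and Rapsn lay above Chrnb1 in 9 of 16 libraries. Chrne followed with 598 ± 177 and Dok7 with 597 ± 130 per kilobase, with Chrne above Dok7 in 9 of 16. These pairs of neighbours therefore did not separate beyond their spread, whereas Chrnb1 exceeded Chrne in 13 of 16 libraries and Dok7 exceeded Chrna1 in all 16.

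Chrna1 (318 ± 105 per kilobase) and Musk (286 ± 133) formed the next pair, with Chrna1 higher in 9 of 16 libraries. Chrnd had 112 ± 61.9 per kilobase and lay below Musk in 15 of 16. Far lower were Lrp4 (16.3 ± 10.3), Agrn (6.41 ± 12.2) and Chrng (5.01 ± 7.53 per kilobase). Lrp4 exceeded Agrn in 13 of 16 libraries. Agrn exceeded Chrng in 6 of 16, and both were at 0 in O4ex, Oc4, Y3ex and Yc4. The adult epsilon subunit was thus read far above the fetal gamma subunit. Among Musk, Lrp4, Dok7, Rapsn and Agrn, the RNA of Lrp4 and Agrn was lowest per kilobase in these fibres. Both have long exon lengths (10504 and 9285 bases), and they were also lowest of these genes without division by length (means of 171.1 and 59.5 normalised reads). Agrn RNA in the motor nerve was not measured.

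**Figure D1:**
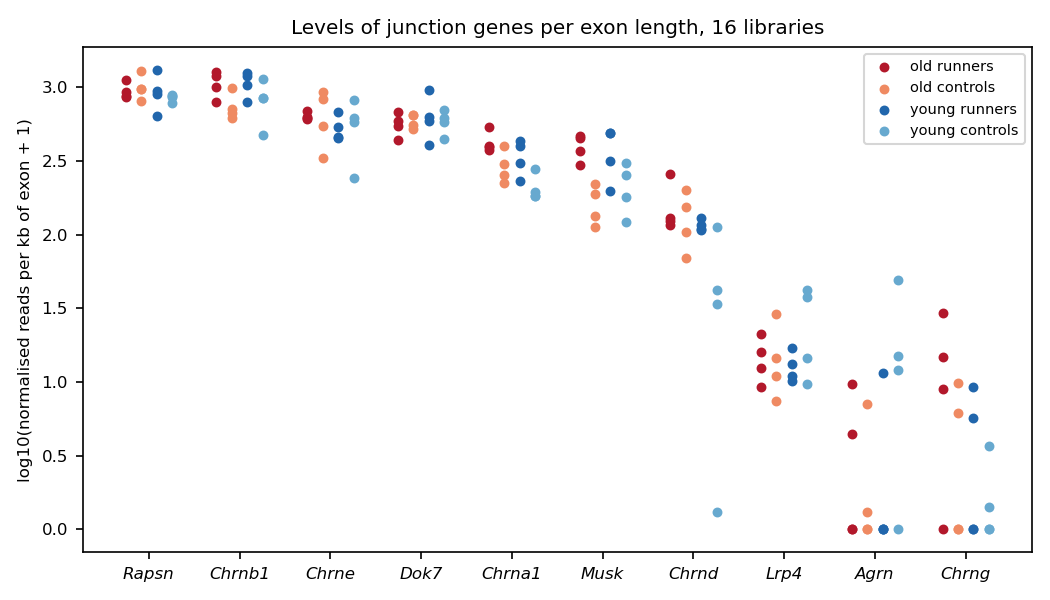
Levels of the 10 junction genes in each of 16 libraries, in the order of their means. The vertical axis is log10 of normalised reads per kilobase of exon plus 1, and each point is 1 library in the colour of its group. Rapsn and Chrnb1 lead with means of 937 and 925 per kilobase, and Lrp4, Agrn and Chrng sit lowest with means of 16.3, 6.41 and 5.01.

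Musk, the kinase at the centre of the agrin response, separated runners from controls most clearly among the members. Old runners had 1121, 1760.3, 1394 and 1694 normalised reads, against 420.3, 705, 499.9 and 828 in old controls. The lowest old runner lay above the highest old control, and the means were 1492 ± 294 and 613 ± 187 (SD, n = 4 each), a ratio of 2.43. Young runners had 1191, 1832, 749 and 1858, against 452, 1148, 952 and 681 in young controls. In young mice the groups overlapped through 1 runner at 749, with means of 1407 ± 537 in young runners and 808 ± 306 in young controls, a ratio of 1.74.

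On the deposited log2 scale, Musk was 0.95 higher in old runners than in old controls (SE 0.18, adjusted p = 0.0777 by limma with Benjamini-Hochberg adjustment over all genes kept) and 0.66 higher in young runners than in young controls (SE 0.30, adjusted p = 0.293). Neither passed the threshold of 0.05. Without the old control Oc1, the old difference was 0.84 and passed (adjusted p = 0.037), while the genes called in that comparison went from 12 to 295. Without any other library it did not pass (adjusted p up to 0.289). The difference between the 2 effects of running was 0.28, with a 95% interval of -0.50 to 1.06 (adjusted p = 0.942). It was 0.18 without Oc1, 0.05 without Y3ex, 0.48 without Yc4, 0.13 without Yc5 and 0.55 with voom.

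A model of all 16 libraries that averages running over both ages was added after the data were seen. In it Musk rose by 0.80 in runners (SE 0.18, adjusted p = 0.0153), and it passed under each of the alternatives tried, including the omission of any 1 of the 16 libraries (adjusted p 0.00498 to 0.04 over these omissions). In this model 977 of 10849 genes passed, or 9.01%, with 4.47% of genes higher, and 2 of the 9 members tested passed, both higher. At an unadjusted p under 0.05 there were 4 members, against 27.4% of all genes, and the median difference was 0.02 over the members tested and 0.03 over all genes. The number of all genes called was 625 without O1ex, 556 without O2ex, 462 without O4ex, 553 without Oc2 and 420 without Y2ex.

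The other member to pass was Chrna1, whose subunit binds acetylcholine and occurs as a pair in each receptor. Old runners had 2358, 1651, 1729 and 1759 normalised reads, against 979, 1752, 1108 and 1314 in old controls. Young runners had 1017, 1759, 1338 and 1904.5, against 797, 1229.6, 793 and 855 in young controls. The groups overlapped at both ages, and 14 of 16 runner and control pairs at 22 months and 15 of 16 at 4 months had the higher value in the runner.

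Averaged over both ages, Chrna1 rose by 0.52 in runners (SE 0.14, adjusted p = 0.0299). The call was lost when O1ex, O4ex, Oc3, Y2ex, Y4ex, Yc7 or Yc8 was left out (difference 0.47 to 0.53, adjusted p 0.0521 to 0.0676) and when a trend of the differences on exon length was removed (0.47, adjusted p = 0.0523). Taken singly, the ages gave 0.45 in old mice (SE 0.17, adjusted p = 0.213) and 0.59 in young mice (SE 0.22, adjusted p = 0.204), and the effects differed by -0.14 (old minus young, 95% interval -0.73 to 0.44, adjusted p = 0.965).

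**Figure D2:**
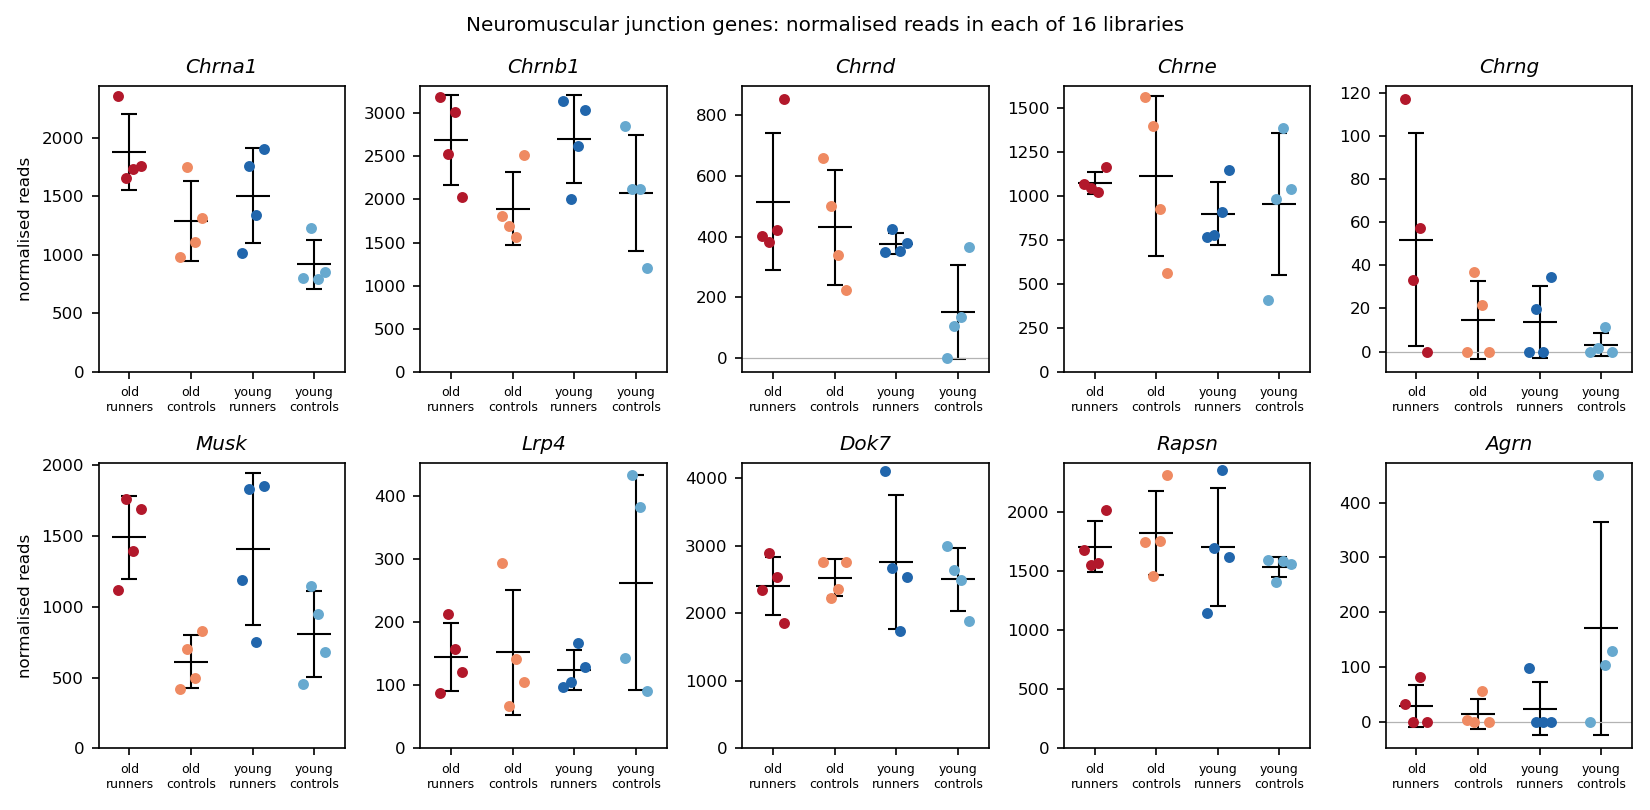
Normalised reads of each junction gene in old runners, old controls, young runners and young controls. Points are libraries, the wide black bar is the mean and the error bars are SD (n = 4), and the vertical axes are linear, include 0 and differ in range. The Musk panel shows the 4 old runners at 1121 to 1760.3, all above the old controls at 420.3 to 828.

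RefSeq promoters (build GRCm38.p6, 250 bases before to 50 after the start) were present for 7 of the 10 members, in 9 entries. They are printed for Chrna1 and Musk because these members passed in the added model of running averaged over both ages. Those of Chrne and Chrng are printed because these subunits are the adult and fetal alternatives at 1 place in the receptor. Whether the promoters of Chrna1 and Musk share a response was not tested. Capitals mark the E-box CANNTG, the letters read by muscle regulatory factors of the MyoD family, and the N-box CCGGAA, letters read by ETS factors such as GABP, each searched on both strands. The Chrna1 window is chr2:73580289-73580588 on the minus strand, Musk chr4:58285712-58286011 on the plus strand, Chrne chr11:70619145-70619444 on the minus strand and Chrng chr1:87205561-87205860 on the plus strand.
Chrna1: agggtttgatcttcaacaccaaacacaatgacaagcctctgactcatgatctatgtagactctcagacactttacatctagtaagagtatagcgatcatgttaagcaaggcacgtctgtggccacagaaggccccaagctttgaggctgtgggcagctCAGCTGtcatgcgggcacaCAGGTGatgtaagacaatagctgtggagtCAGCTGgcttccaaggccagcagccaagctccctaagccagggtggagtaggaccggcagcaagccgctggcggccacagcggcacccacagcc
Musk: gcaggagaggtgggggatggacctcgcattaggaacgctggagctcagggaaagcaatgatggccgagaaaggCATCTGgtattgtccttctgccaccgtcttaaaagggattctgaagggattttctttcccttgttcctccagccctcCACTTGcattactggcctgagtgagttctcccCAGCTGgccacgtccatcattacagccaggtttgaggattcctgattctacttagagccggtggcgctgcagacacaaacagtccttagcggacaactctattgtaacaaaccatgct
Chrne: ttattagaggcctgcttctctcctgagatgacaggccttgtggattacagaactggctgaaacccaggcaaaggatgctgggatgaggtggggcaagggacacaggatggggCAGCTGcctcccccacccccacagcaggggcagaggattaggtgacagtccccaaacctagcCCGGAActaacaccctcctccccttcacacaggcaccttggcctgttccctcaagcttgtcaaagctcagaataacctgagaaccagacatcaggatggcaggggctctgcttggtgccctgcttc
Chrng: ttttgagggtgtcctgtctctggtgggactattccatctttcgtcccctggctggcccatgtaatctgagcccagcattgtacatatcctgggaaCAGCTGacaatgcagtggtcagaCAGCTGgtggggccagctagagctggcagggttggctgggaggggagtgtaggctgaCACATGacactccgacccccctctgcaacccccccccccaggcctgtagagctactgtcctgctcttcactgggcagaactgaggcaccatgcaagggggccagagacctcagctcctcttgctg

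Chrna1, Musk and Chrng each held 3 E-boxes and no N-box, and Chrne held 1 E-box and 1 N-box, with no overlap between motifs. Chrnb1, whose promoter is not printed, also held 3 E-boxes. At least 3 E-boxes were found in 17.6% of the 32851 promoters in the table, at least 1 in 72.3%, and an N-box in 14.9%. Chrne was the only entry of the 9 with an N-box. A match describes letters and not a bound site.

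Of the other receptor subunits, Chrnb1 had 3186, 2532, 3013 and 2026 normalised reads in old runners, against 1805, 1690.3, 1562 and 2514 in old controls. Young runners had 3136, 2007, 2619 and 3042, against 2855, 2123, 2126 and 1207 in young controls. Runner libraries lay mostly above control libraries, with 1 high control at 22 months and a wide spread among the controls at 4 months. The difference was 0.44 in old mice (SE 0.17, adjusted p = 0.221), 0.38 in young mice (SE 0.24, adjusted p = 0.433) and 0.41 averaged over both ages (SE 0.15, adjusted p = 0.0976). Without Yc8 it was 0.17 in young mice and 0.30 averaged (adjusted p = 0.74 and 0.17), and without Yc4 the averaged difference was 0.49 and passed (adjusted p = 0.0469).

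Chrnd differed mainly in 1 group. Old runners had 402, 382, 420.5 and 851 normalised reads, against 658, 500.3, 339 and 224 in old controls. Young runners had 350.4, 424, 354 and 378, against 1.0, 108, 135 and 366 in young controls. The lowest young control, Yc4, held 1 read, and 3 of the 4 young controls lay below every library of the other 3 groups. The means were 514 ± 225 in old runners and 430.2 ± 189 in old controls, and 376 ± 33.9 in young runners and 153 ± 154 in young controls (SD, n = 4 each).

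On the log2 scale Chrnd was 1.06 higher in young runners than in young controls (SE 0.40, adjusted p = 0.215) and 0.16 higher in old runners than in old controls (SE 0.23, adjusted p = 0.758). The difference between these effects was -0.90 (old minus young, 95% interval -1.93 to 0.14, adjusted p = 0.79). Averaged over both ages the difference with running was 0.61 (SE 0.24, adjusted p = 0.12). Without Yc4, the library with 1 read, these values were 0.64 in young mice, -0.48 for the difference between effects and 0.40 averaged (adjusted p = 0.233, 0.652 and 0.169). Without Yc8 the averaged difference was 0.78 and passed (adjusted p = 0.0394). Voom, which works on the recovered reads and not on the deposited scale, gave 2.42 in young mice, -2.28 for the difference between effects and 1.36 averaged, none of which passed.

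Chrne, the adult subunit, showed no difference with running that could be resolved. Old runners had 1068, 1049, 1021 and 1167 normalised reads, against 1562, 1400.5, 927 and 561 in old controls. Young runners had 766, 778, 908 and 1149.6, against 408, 983, 1386 and 1042 in young controls. In both ages every runner library lay within the range of its controls. The averaged difference was 0.01 with a 95% interval of -0.38 to 0.41 (adjusted p = 0.971), and it turned negative under 2 other scalings, quantile normalisation (-0.020) and voom (-0.011).

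Chrng, the fetal subunit, was listed at 0 reads in 7 of 16 libraries, a count that allows up to 3 reads, or 2.4 to 3.8 normalised reads, in these libraries. Old runners had 117, 33.4, 57.2 and 0 normalised reads, against 0, 37.0, 21.6 and 0 in old controls. Young runners had 0, 19.7, 0 and 34.4, against 0, 1.8, 11.2 and 0 in young controls. The groups overlapped at both ages, and the filter on low values left the gene out of every comparison. With no filter its differences ran from 0.13 to 0.34 over the 7 comparisons, with adjusted p of 0.394 to 0.973. Per kilobase, Chrng made up 1.94 ± 1.80% of the sum of Chrng and Chrne in old runners, 0.499 ± 0.578% in old controls, 0.555 ± 0.645% in young runners and 0.100 ± 0.155% in young controls (SD, n = 4 each), with a highest share of 4.27% in O1ex.

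Agrn and Lrp4, the ligand and its receptor, were low. Agrn had 31.8, 0, 81.4 and 0 normalised reads in old runners, against 2.9, 0, 56.3 and 0 in old controls. Young runners had 97.8, 0, 0 and 0, against 0, 449, 103 and 130.0 in young controls. It was at 0 in 8 of 16 libraries, which allows up to 2.1 to 3.4 normalised reads there, and 3 of the 4 young controls had the 3 highest values. The difference in young mice was -1.06 (SE 0.52, adjusted p = 0.325), or -4.90 with voom (adjusted p = 0.511). The filter on low values left the gene out in old mice, and with running averaged over both ages the difference was -0.46 (SE 0.31, adjusted p = 0.356), or -0.69 without Yc4 and -2.08 with voom.

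Lrp4 had 87.1, 214, 158 and 120.5 normalised reads in old runners, against 294, 67.8, 142 and 105 in old controls. Young runners had 96.5, 105, 168 and 129, against 143, 434, 383 and 91.5 in young controls. The highest 2 values of all 16 libraries were young controls, yet the groups overlapped at both ages. The difference was 0.01 in old mice (SE 0.20, adjusted p = 0.992), where it turned negative under median centring, quantile normalisation and removal of the length trend, and -0.50 in young mice (SE 0.30, adjusted p = 0.423). The young difference was -0.30 without Yc5 (adjusted p = 0.62) and -0.90 with voom (adjusted p = 0.538).

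Dok7 and Rapsn, the activator of MuSK and the scaffold of the receptor cluster, were among the steadiest members. Rapsn had 1679, 1548, 1569 and 2014 normalised reads in old runners, against 1745, 1459.5, 1756 and 2312 in old controls. Young runners had 1143, 1691, 2355 and 1614, against 1591, 1405, 1579.8 and 1558 in young controls. The coefficient of variation over 16 libraries was 18.4% for Rapsn, the lowest of the 10 members, against 46.5% for Musk.

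Dok7 averaged 2409 ± 431 normalised reads in old runners and 2530 ± 275 in old controls, and 2764 ± 993 in young runners and 2504 ± 461 in young controls (SD, n = 4 each). Its libraries ran from 1732 to 4118, both in young runners, so that the young runners spanned every other group. With running averaged over both ages the difference was 0.01 for Dok7 (95% interval -0.29 to 0.31, adjusted p = 0.967) and 0.02 for Rapsn (95% interval -0.25 to 0.28, adjusted p = 0.949). Both signs turned under quantile normalisation, and that of Dok7 also under median centring and removal of the length trend.

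**Figure D3:**
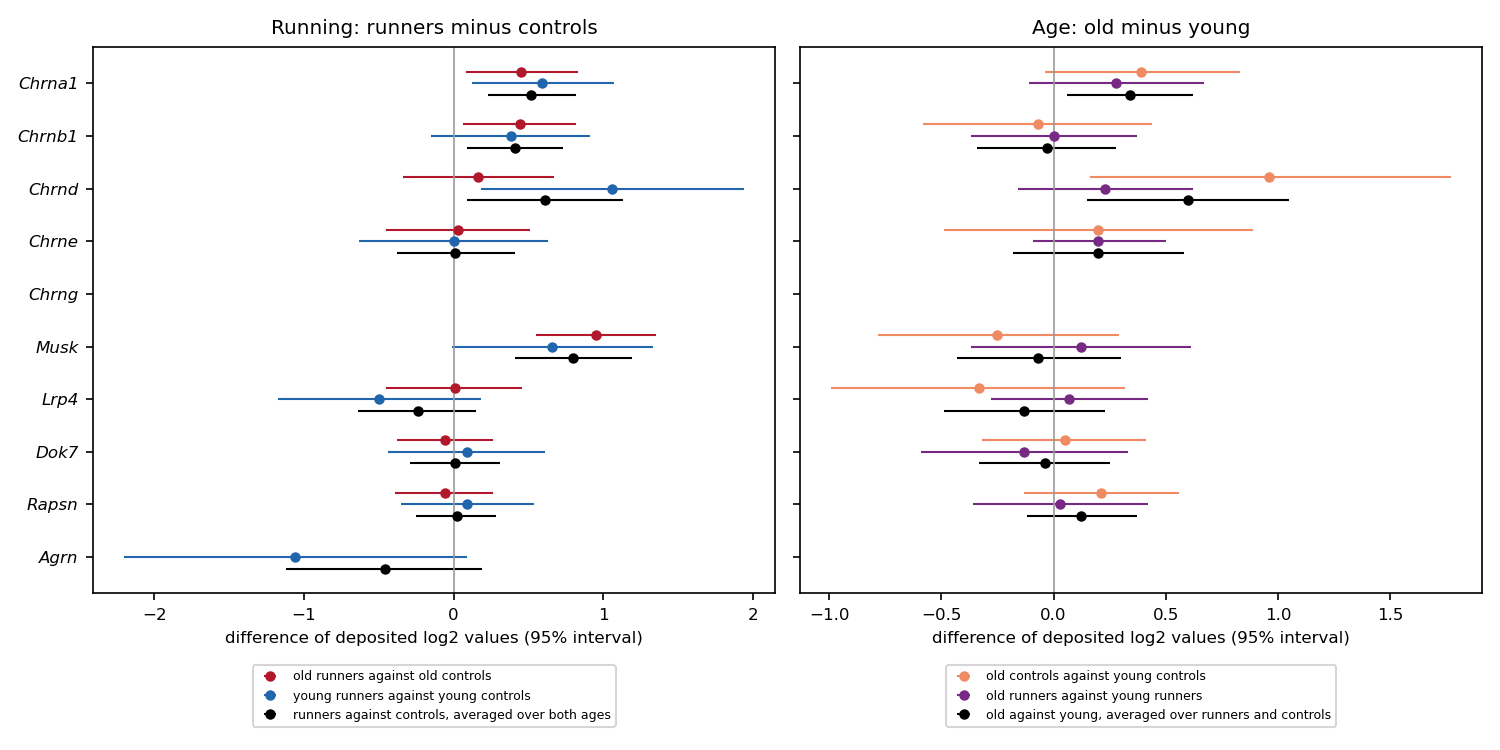
Differences in the deposited log2 values for each member tested, with 95% intervals. The left panel shows runners minus controls in old mice, in young mice and averaged over both ages, and the right panel shows old minus young in controls, in runners and averaged over both. In the left panel Musk lies at 0.95, 0.66 and 0.80 and Chrna1 at 0.45, 0.59 and 0.52, while Chrne, Dok7 and Rapsn have averaged differences of 0.01, 0.01 and 0.02.

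Counted over the list, no member passed in old runners against old controls, where 8 of 10 could be tested and 12 of 9379 genes (0.128%) passed by limma. At an unadjusted p under 0.05 there were 3 members, Chrna1, Chrnb1 and Musk, against 17.4% of all genes. Musk was the 1 member of 8 whose groups did not overlap, against 10.2% of all genes. The median difference of the members was 0.10 and that of all genes 0.03.

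In young runners against young controls 9 members were tested, and again none passed, while 81 of 10624 genes (0.762%) did. Chrna1 and Chrnd reached an unadjusted p under 0.05, against 17.4% of all genes. In no member did the groups separate, against 11.5% of all genes, and the members' median difference was 0.09 beside 0.01 for all genes. The test of the difference between the 2 ages' running effects called none of 10849 genes (0.0%) and none of 9 members, with 0 members and 6.65% of all genes at an unadjusted p under 0.05. Voom on the recovered reads also called no member in either age or in that test of the difference.

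Age was compared within controls and within runners. Old and young controls differed in 11 of 9831 genes (0.112%) and in none of the 8 members tested, and Chrnd was the 1 member at an unadjusted p under 0.05, against 11.2% of all genes. Chrnd had 430.2 ± 189 normalised reads in old controls and 153 ± 154 in young controls, a log2 difference of 0.96 (SE 0.36, 95% interval 0.16 to 1.77, adjusted p = 0.35). It was 0.63 without Yc4 (adjusted p = 0.289) and 2.56 with voom (adjusted p = 0.511). Chrna1 had 1288 ± 338 normalised reads in old controls and 919 ± 209 in young controls (0.39, SE 0.20, adjusted p = 0.483, or 0.26 without Oc2). In no member were the control groups apart, against 7.0% of all genes.

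Old and young runners differed in 2 of 9387 genes (0.0213%) and in no member of 8, with 0 members and 4.91% of all genes at an unadjusted p under 0.05. All adjusted p-values of members were 0.988 or more, and the largest difference was 0.28 for Chrna1 (95% interval -0.11 to 0.67), which was 0.14 without Y1ex and 0.18 without O1ex. In no member did the runner groups separate, against 3.38% of all genes. In the added model that averages age over runners and controls, 74 of 10281 genes (0.72%) and none of 8 members passed, with 2 members and 11.8% of all genes at an unadjusted p under 0.05. These were Chrnd at 0.60 (SE 0.21, adjusted p = 0.25) and Chrna1 at 0.34 (SE 0.13, adjusted p = 0.317). Voom called no member in these 3 comparisons of age.

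Members also varied among the libraries of a group. After each gene's group means were removed, Chrnd and Chrne deviated together over the 16 libraries (Pearson r = 0.78 on log2 of CPM plus 1, CPM being reads scaled to the library total), as did Chrnb1 and Dok7 (0.60), Chrna1 and Musk (0.59) and Chrna1 and Chrng (0.56). Chrnb1 and Chrnd deviated in opposite directions (-0.74). The points share libraries and depth scaling, and low counts such as the single Chrnd read in Yc4 weigh on these values. Without removal of group means, the highest values were 0.71 for Chrna1 and Chrng, 0.63 for Chrna1 and Musk and 0.62 for Chrnd and Chrne.

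**Figure D4:**
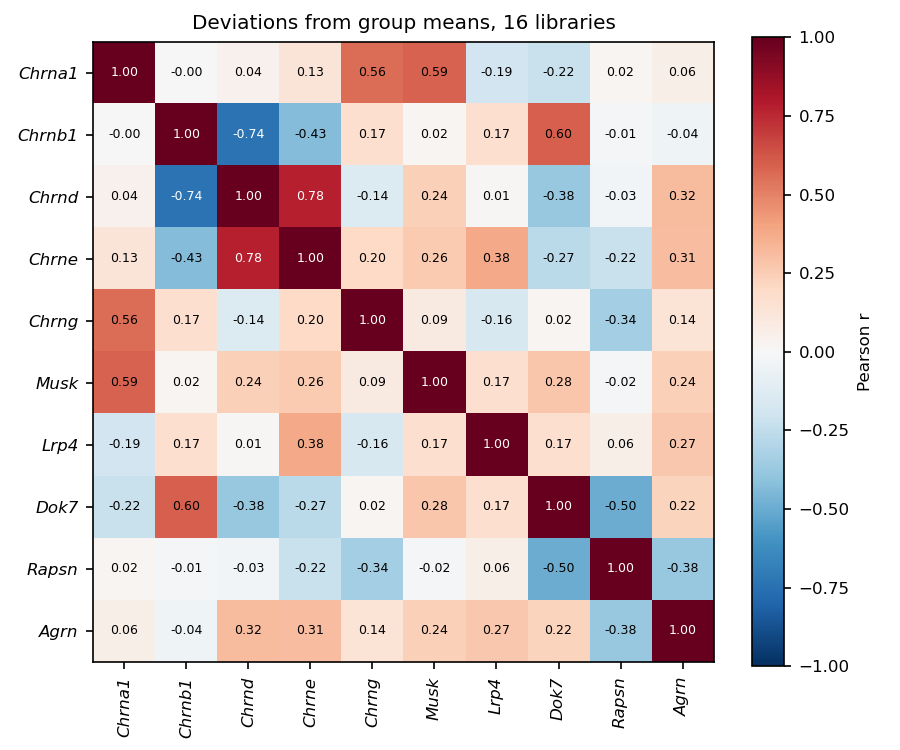
Pearson r between the junction genes over 16 libraries, computed on deviations from the group means of log2 of CPM plus 1. Red cells are positive and blue cells negative, each with its value. The deepest off-diagonal cells are Chrnd with Chrne at 0.78 and Chrnb1 with Chrnd at -0.74.

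Among 10026 genes ranked by likeness to Rapsn, the member with the highest level per kilobase, the closest over the 16 libraries were Aspscr1 and Prelid1 (Pearson r = 0.83 each), then Baiap2l2, Phactr2 and Ncaph2 (0.79 each). The mean z-score of the 8 members tested in every table was followed most closely by Eif4g2 (0.87), Kif5b and Ube4a (0.86 each), Usp25 (0.84) and Eprs (0.83). These values are descriptions over libraries that share depth and group.

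Other genes of the junction were read from 4 lists, which were chosen with earlier results of these data known. Counts over these lists are therefore descriptions, and where along the fibre the RNA lay was not tested. None of the genes in the 4 lists passed in any comparison of 1 pair of groups. In the model averaged over both ages, 7 of 31 tested genes of junction signalling and scaffolding rose in runners and none fell, beside 4.47% of all genes higher in that model, and their median was 0.21 against 0.03 for all genes. They were Camk2b, a calcium-activated kinase subunit (0.88, SE 0.18, adjusted p = 0.00802), Plec of the cytoskeletal linker plectin (0.85, adjusted p = 0.0104), Ptpn11 of the phosphatase SHP2 (0.84, adjusted p = 0.0188), Apc (0.77, adjusted p = 0.0322), Dag1 of dystroglycan (0.72, adjusted p = 0.0272), Nes of nestin (0.66, adjusted p = 0.0294) and the ETS factor gene Etv5 (0.43, adjusted p = 0.0314). Camk2b averaged 10900 ± 1114 normalised reads in old runners and 5541 ± 2229 in old controls, and 7164 ± 1411 in young runners and 4291 ± 1432 in young controls (SD, n = 4 each).

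Of 10 tested genes of the synaptic basal lamina, the nidogen gene Nid1 rose (0.91, adjusted p = 0.0442) and the type IV collagen gene Col4a3 fell (-0.66, adjusted p = 0.0338). That is 1 of 10 in each direction, beside 9.01% of all genes called in both directions together and 4.47% higher. Col4a3 averaged 10.5 ± 11.9 normalised reads in old runners and 36.5 ± 45.9 in old controls, and 24.4 ± 35.5 in young runners and 154.6 ± 18.4 in young controls (SD, n = 4 each). Nid1 averaged 109.9 ± 45.9 in old runners and 39.7 ± 49.0 in old controls. In young mice it averaged 177 ± 175 in runners and 5.2 ± 8.8 in controls. Low genes such as these pass the filter mainly through the groups where they are high. The calls of Nid1 and Col4a3 are therefore descriptions only. None of 5 glycosylation genes of congenital myasthenia passed, with Alg14 (0.33, adjusted p = 0.178) and Gfpt1 (0.33, adjusted p = 0.206) nearest. Nor did any of 16 tested genes of the denervation response, with the kinase gene Sik1 at 0.66 (adjusted p = 0.0531) and the deacetylase gene Hdac4 at -0.40 (adjusted p = 0.0607) nearest.

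Markers of other cells moved with running in the same libraries. The 9 markers of fibro-adipogenic progenitors, the matrix-producing cells between fibres, summed to 3478 to 5948 normalised reads in old runners and 916 to 3896 in old controls, and to 6852 to 15060.3 in young runners and 1338 to 2528 in young controls. In the averaged model 5 of the 7 tested rose, beside 4.47% of all genes, among them Dcn (2.27, adjusted p = 0.000448) and Col1a2 (1.04, adjusted p = 0.00425), while Pdgfra was at 0 in all 8 libraries of old mice. The rise of Col1a2 lay in young mice, with 309.5 ± 39.9 normalised reads in runners and 0.62 ± 0.78 in controls. Old runners had 65.6 ± 66.3 and old controls 87.9 ± 76.5. Its effects of running differed by -2.29 (old minus young, adjusted p = 0.125 by limma). Col1a1 reached at most 84.3 normalised reads in old controls and 124.9 in old runners. In young mice it reached at most 27.3 in controls and 330.1 in runners. Low markers, such as Col1a1 and Col1a2, pass the filter mainly through the groups where they are high. Counts of markers called here are therefore descriptions. Of the fibre markers, Myh1 (1.43, adjusted p = 0.0054) and Myh4 (0.80, adjusted p = 0.0457), 2 fast myosin genes, rose in runners in the averaged model, and 8 of the 10 did not pass. The 9 Schwann cell markers listed summed to 466 to 781 normalised reads in old runners and 377 to 1092 in old controls, and to 144 to 714 in young runners and 185 to 609 in young controls. These sums overlapped at both ages. Mbp alone had 149.1 to 261.0 in old runners and 167.5 to 557.4 in old controls. In young mice it had 52.8 to 119.4 in runners and 0 to 24.1 in controls (1.02, adjusted p = 0.0749 by limma). Of the 3 tested there, 2 were higher and 1 lower, and none was called. With age averaged over runners and controls, Mbp was called higher in old mice (0.95, adjusted p = 0.00348 by limma), 1 of 2 tested. With running averaged over both ages, Rgs5 was the 1 of 4 tested markers of pericytes and smooth muscle to rise (1.5, adjusted p = 0.0189). The 8 markers of that list summed to 5322 to 12062 normalised reads in old runners and 1530.0 to 9249 in old controls, and to 7220.1 to 13918 in young runners and 2540.1 to 8445 in young controls. Fmod was the 1 of 4 tested tenocyte markers to rise (1.45, adjusted p = 0.0408). Its libraries spread widely, from 44.5 to 1169.7 normalised reads in old runners and 0 to 452.7 in old controls. In young mice Fmod had 0 to 899.2 in runners and 0 to 0.9 in controls. All 8 tested endothelial markers had positive differences with a median of 0.66, and none passed, with Flt1 nearest (0.96, adjusted p = 0.0529). The 9 endothelial markers summed to 1100.3 to 4650.5 normalised reads in old runners and 642 to 5179 in old controls, and to 1466 to 5867 in young runners and 322 to 1263 in young controls. None of 4 tested satellite cell markers and none of 3 tested macrophage markers passed. The part of these markers in the rise of Musk and Chrna1 was not tested.

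In the reference annotation (GENCODE M21, mm10) Chrna1 (ENSMUSG00000027107.3) lies at chr2:73563215-73580338 on the minus strand with 4386 bases of exon, and Musk (ENSMUSG00000057280.15) at chr4:58285960-58374303 on the plus strand with 3776 bases of exon. Chrnd (chr1:87190607-87200070) and Chrng (chr1:87204657-87212694) are neighbours on the plus strand and do not overlap. Rapsn (chr2:91035620-91045729) shares 4 exon bases with Gm13778 on the other strand, and Chrne (chr11:70614883-70619216) overlaps 4930544D05Rik with no shared exon base. The other members overlap no annotated gene.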

How the data were processed

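RNA-seq of 16 libraries was analysed. Per the labels' protocols, 10 ng of total RNA was reverse transcribed with SMART-Seq v4 and libraries were made with the Ovation Ultralow System, a scheme with no strand marking stated. The submitters' processing notes name Trim Galore, STAR, featureCounts (Subread), DESeq2 and mm10, all without versions. The authors deposited 4 tables of variance-stabilised log2 values, each scaled for 1 pair of groups. A value at the table's floor (7.69, 6.73, 7.45 and 7.69) is 0 reads, and differences of low genes are understated on this scale.

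Reads recovered by inverting this transformation were whole in 100% of values (tolerance 0.02), and libraries present in 2 tables agreed in every value. Normalised reads are these divided by 1 median-of-ratios size factor over 16 libraries. Lengths come from GENCODE M21 (95.6% of symbols matched). Each pair was tested in its own table with limma 3.58.1 (R 4.3.3, variance trend, 2-sided, Benjamini-Hochberg over all genes that 4 or more libraries put 1 or more above the floor), with Python 3.11.15 for the rest. The script was tested on simulated data. The averaged models take both tables of the contrast, with 1 mean per group, and were added after the data were seen. Alternatives were no filter, a filter of 2, median centring, quantile normalisation, no variance trend, removal of a length trend, voom on recovered reads and each library left out.

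Column names gave 6 runner libraries as titled. The others gave the group only. The members and gene lists were chosen with earlier results of these data known. All members were named, with every listed pathway gene that passed or the 2 nearest, and the 5 genes most like Rapsn and the members' mean. The limit of up to 3 reads at a count of 0 covers counting error only. The 95% intervals of differences come from limma and cover the spread between libraries.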

Additional observations from a re-analysis of the deposited data

Results flagged for a closer look

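Of 40 sets of 4 libraries (each member in each group), 3 held a library far from the other 3, where chance flags about 1 in 20. Chrnd stood at 10.24 on the deposited log2 scale in the old runner O4ex, with the other old runners at 9.50 to 9.58. Rapsn stood at 10.69 in the young control Yc5, with the other young controls at 10.84 to 10.85. This value lay within the range of the young runners (10.43 to 11.38). Agrn stood at 8.09 in the young runner Y1ex, with the other young runners at the floor of 6.73. That tie fixed the flag in advance, so the chance rate does not apply to it. Without O4ex the Chrnd difference between old runners and old controls was -0.011 (adjusted p = 0.989).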

How the results depend on the processing

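No member was called between 1 pair of groups under any alternative, except Musk in old runners against old controls without Oc1 (0 to 1 member over the omissions). With running averaged over both ages, Musk passed under all 23 alternatives and Chrna1 under 15 of 23, so that 1 to 3 members passed over the omissions and 1 after removal of the length trend. Age averaged over runners and controls called no member throughout.

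The number of all genes called moved more, and the cause was not tested. For old runners and old controls (12) it was 7 with no filter, 27 with a filter of 2, 23 with median centring, 24 with quantile normalisation, 4 with no variance trend, 1 after removal of the length trend and 3 with voom. For young runners and young controls (81) it was 24 with no filter, 143 with median centring, 228 with quantile normalisation, 47 with no variance trend and 13 with voom. For old and young controls (11) it was 3 with no filter, 28 with quantile normalisation and 3 with voom. The difference between the effects of running (0) gave 1 after removal of the length trend, and age averaged over runners and controls (74) gave 47 with a filter of 2 and 38 with voom. Over the omission of 1 library, the counts ran from 1 to 295 for running in old mice, 0 to 181 in young mice, 3 to 52 for age in controls, 0 to 3 for age in runners, 0 to 5 for the difference between the effects of running, 420 to 1322 for running averaged over both ages and 36 to 149 for age averaged.

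In these alternatives and omissions signs turned for differences near 0, and no difference that passed changed sign. In old runners against old controls Chrne was -0.002 with median centring and -0.009 with quantile normalisation, Lrp4 was -0.025, -0.047 and, after removal of the length trend, -0.179, and Rapsn was 0.029 after that removal. Chrne was 0.072 in young runners against young controls after removal of the length trend, and Chrnb1 was -0.010 in old against young runners after it and -0.007 with voom. For running averaged over both ages, quantile normalisation gave -0.020 for Chrne, -0.034 for Dok7 and -0.033 for Rapsn, voom gave -0.011 for Chrne, and Dok7 was -0.001 with median centring and -0.040 after removal of the length trend. Over the omission of 1 library, the differences that changed sign ran as follows. Between old runners and old controls Chrnd ran from -0.011 to 0.303, Chrne from -0.179 to 0.175, Dok7 from -0.145 to 0.036, Lrp4 from -0.105 to 0.163 and Rapsn from -0.142 to 0.038. Between young runners and young controls Chrne ran from -0.290 to 0.183, Dok7 from -0.113 to 0.270 and Rapsn from -0.065 to 0.249. Between old and young controls Chrnb1 ran from -0.269 to 0.086, Chrne from -0.060 to 0.421 and Dok7 from -0.069 to 0.128. Between old and young runners Chrnb1 ran from -0.114 to 0.110, Dok7 from -0.296 to 0.058, Lrp4 from -0.010 to 0.150, Musk from -0.086 to 0.240 and Rapsn from -0.110 to 0.178. For the difference between the effects of running at the 2 ages Chrnb1 ran from -0.100 to 0.269, Chrne from -0.178 to 0.319, Dok7 from -0.333 to 0.050 and Rapsn from -0.313 to 0.002. For running averaged over both ages Chrne ran from -0.131 to 0.106, Dok7 from -0.088 to 0.103 and Rapsn from -0.064 to 0.093. For age averaged over runners and controls Chrnb1 ran from -0.134 to 0.043, Dok7 from -0.126 to 0.052 and Musk from -0.166 to 0.007.

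Columns of old and young runners share the numbers 1 to 4. Deviations of same-numbered libraries correlated at -0.24, 0.0924, -0.398 and -0.0441 over 9387 genes, so the numbers were not read as pairs. With the replicate block the genes called between old and young runners were 0 and not 2, and the members called 0. The control columns share only 1 number across ages, so that planned block was not run, and the titles number runners and controls apart, so no block was planned there. The filter on low values left Chrng out of every comparison and Agrn out of 4, and with no filter neither was called.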
